A study of Homo sapiens with 6 samples.

Results

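The genes described here encode the proteins of the mitochondrial ribosome. They were taken as every protein-coding gene in the deposited count table whose symbol starts with MRPL or MRPS and continues with a number and at most 1 letter. This rule found 78 genes among 30618, of which 49 carry the large-subunit prefix MRPL and 29 the small-subunit prefix MRPS. The rule used symbols and no measured value.

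The mitochondrial ribosome, or mitoribosome, sits in the mitochondrial matrix and makes the small set of membrane proteins that mitochondrial DNA (mtDNA) still encodes, all of them subunits of the respiratory chain or of ATP synthase. Its ribosomal RNAs come from mtDNA, but every one of its proteins is encoded in the nucleus, translated on cytosolic ribosomes and imported. Some of these proteins descend from bacterial ribosomal proteins and keep their numbers, and others are found only in mitochondria. EIF1 acts on the cytosolic side: it is the initiation factor that makes the scanning small ribosomal subunit pass over poor start codons. The pigment epithelium, the tissue from which ARPE-19 was derived, is known for a high demand for mitochondrial respiration.

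All 6 libraries were polyA-selected RNA-seq of ARPE-19, an established human retinal pigment epithelial line, kept in 50 mM glucose as a model of the diabetic milieu. The NC group (3 libraries) received a non-targeting control siRNA and the siEIF1 group (3 libraries) an siRNA against EIF1. High glucose was therefore shared by both groups, and neither a normal-glucose nor an osmotic control library was analysed here. A single siRNA per group and a single line were used, and the study calls the libraries of a group biological replicates without describing how cultures were separated.

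EIF1, the targeted gene, stood at 294, 281 and 281 FPKM (fragments per kilobase of transcript, scaled to the mapped reads of the library) in NC and at 24.3, 22.7 and 23.5 FPKM in siEIF1. The groups were far apart, with a log2 fold change of -3.58 ± 0.055 (SE, adjusted p = 1.08e-13, edgeR quasi-likelihood test with Benjamini-Hochberg adjustment). Libraries held 26499929 to 31431479 counts, and the mitoribosomal genes took 0.383% to 0.417% of them. Of the pigment epithelial markers, KRT18, KRT8, BEST1, OTX2 and MITF were at 5.46 FPKM or more in every library. RLBP1, PMEL and TYR stayed at 0.73 FPKM or less, and SERPINF1 was at 1.41 to 2.22 FPKM. The endothelial genes PECAM1, CDH5 and VWF and the leukocyte gene CD14 reached at most 0.05 FPKM. RPE65, TTR and PTPRC had no entry among the FPKM values of the study.

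The comparison asked whether mitoribosomal transcripts changed when EIF1 was knocked down in high glucose. Most of them did not pass the test, and those that did moved by little. All 78 genes passed the filter on low counts. At an adjusted p under 0.05, the call used below, 2 were higher in siEIF1 (MRPL10 and MRPS9) and 6 were lower (MRPL52, MRPL39, MRPL18, MRPS17, MRPS31 and MRPS16). These 8 genes were 10.3% of the group, against a background of 20.6% over all 16749 genes tested. By direction the background was 10.2% higher and 10.4% lower. Both shares moved with the fit. DESeq2 called 8.97% of members and 19.2% of the genes to which it gave an adjusted p, and limma on log2(FPKM + 1) called 10.3% and 15.0%. Without the count filter edgeR called 11.5% of members and 11.8% of all 30618 genes, or 21.3% of the 16749 that pass the filter.

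The study's methods also set a limit on size, a change of at least 2 times in either direction. No mitoribosomal gene met it, against 1.71% of all genes. This count of 0 held in edgeR, DESeq2 and limma, with 15 members at an unadjusted p under 0.05 in edgeR, 10 in DESeq2 and 19 in limma. Log2 fold changes ran from -0.32 for MRPS17 to 0.20 for MRPL10. The median was -0.021 over the members (0.0087 without siEIF1 replicate 3) and 0.0033 over all genes, and the median size regardless of sign was 0.063 against 0.15. The 95% confidence interval lay within a 1.5-fold change in either direction for all 78 genes, compared with 69.0% of all genes. The members were well covered, with a median of 1350 counts a library, and their median standard error was 0.061 against 0.086 for all genes. The part of this precision in the narrow intervals was not tested. RNA came from whole cultures, and each library was scaled by its total and a TMM factor (trimmed mean of M-values). Less RNA per cell therefore cannot be told apart from fewer cells that carry a transcript.

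**Figure D1:**
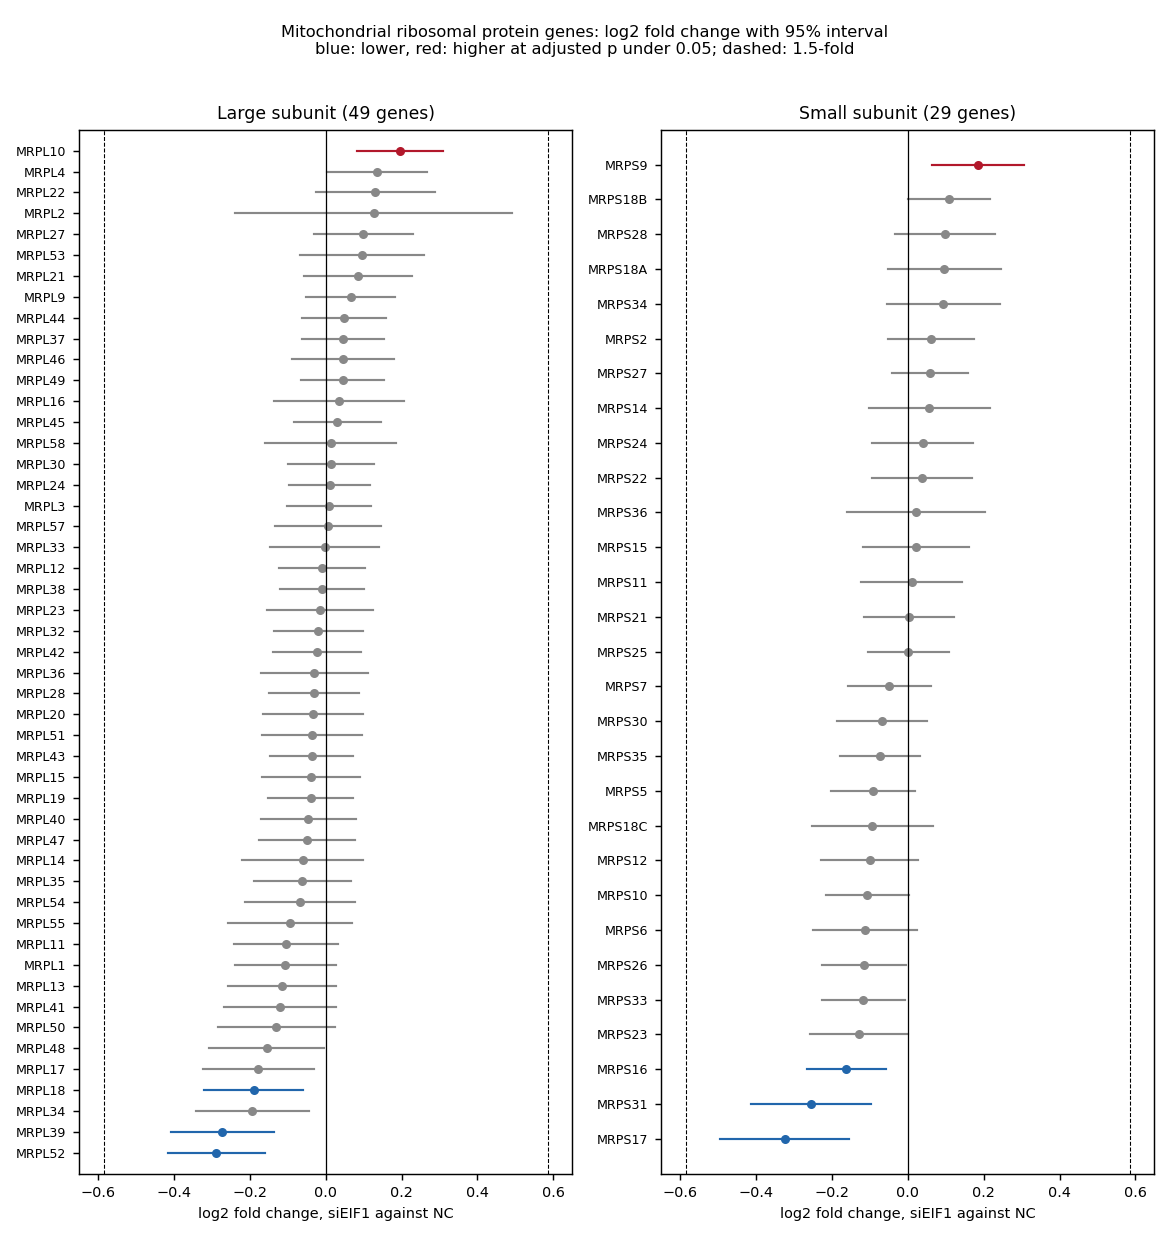
Log2 fold change (siEIF1 against NC, x axis) of each of the 49 large-subunit and 29 small-subunit genes, ordered by value, with 95% confidence intervals as horizontal bars; blue marks genes lower and red genes higher at an adjusted p under 0.05, and dashed lines mark a 1.5-fold change. All 78 intervals lie between the dashed lines, the widest being that of MRPL2.

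In the large subunit, 4 of 49 genes passed the test, 1 higher and 3 lower. MRPL52, a mitochondria-specific protein (chr14:22829879-22835037, plus strand, GRCh38), was at 58.0, 51.1 and 52.9 CPM (counts scaled by library size) in NC and at 43.0, 44.2 and 45.4 CPM in siEIF1. The groups were separate, with siEIF1 lower throughout. The transcript fell by 18.1%, a log2 fold change of -0.29 ± 0.059 (SE, adjusted p = 0.00375, edgeR). MRPL39, also without a bacterial counterpart and placed near the exit of the polypeptide tunnel (chr21:25585656-25607517, minus strand), was at 26.3, 28.7 and 26.5 CPM in NC and at 22.4, 22.4 and 22.6 CPM in siEIF1. The siEIF1 libraries were nearly identical to each other and lower than all NC libraries, by 17.2% (log2 -0.27 ± 0.063, SE, adjusted p = 0.00793, edgeR).

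MRPL18, the counterpart of a bacterial protein that binds ribosomal RNA in the central protuberance (chr6:159789812-159798436, plus strand), was at 62.4, 55.3 and 56.2 CPM in NC and at 53.4, 49.9 and 49.2 CPM in siEIF1. The groups did not overlap, but the lowest NC library and the highest siEIF1 library were close. The decrease of 12.3% passed the test narrowly (log2 -0.19 ± 0.060, SE, adjusted p = 0.0401, edgeR). MRPL10, which anchors the stalk where translation factors dock (chr17:47823272-47831541, minus strand), was at 55.6, 54.9 and 54.3 CPM in NC and at 66.0, 62.9 and 60.1 CPM in siEIF1. All siEIF1 libraries were higher, by 14.6% (log2 0.20 ± 0.052, SE, adjusted p = 0.0170, edgeR).

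In the small subunit, 4 of 29 genes passed the test, again 1 higher and 3 lower. MRPS17, the counterpart of a bacterial protein bound to the small-subunit RNA (chr7:55951877-55956500, plus strand), was at 13.9, 14.4 and 14.0 CPM in NC and at 10.6, 11.3 and 11.9 CPM in siEIF1. The NC libraries lay close together and above all siEIF1 libraries. Its decrease of 20.1% was the largest change of any member in the edgeR comparison (log2 -0.32 ± 0.079, SE, adjusted p = 0.0105). MRPS31, a mitochondria-specific protein (chr13:40729128-40771190, minus strand), was at 22, 18.9 and 20.4 CPM in NC and at 17.4, 16.9 and 16.9 CPM in siEIF1. The NC libraries were more spread than the siEIF1 libraries but did not overlap with them. The decrease was 16.2% (log2 -0.25 ± 0.073, SE, adjusted p = 0.0253, edgeR).

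MRPS16, one of the more abundant small-subunit transcripts and a gene in which mutations cause a respiratory-chain deficiency (chr10:73248843-73252693, minus strand), was at 129, 119 and 124 CPM in NC and at 113, 107 and 112 CPM in siEIF1. The groups did not overlap. The decrease of 10.6% was the smallest that passed the test (log2 -0.16 ± 0.048, SE, adjusted p = 0.0307, edgeR). MRPS9, whose bacterial counterpart lies close to the decoding site (chr2:105038069-105099960, plus strand), was at 38.5, 36 and 35.9 CPM in NC and at 42.6, 42.4 and 40.5 CPM in siEIF1. All siEIF1 libraries were higher, by 13.7% (log2 0.19 ± 0.056, SE, adjusted p = 0.0328, edgeR).

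**Figure D2:**
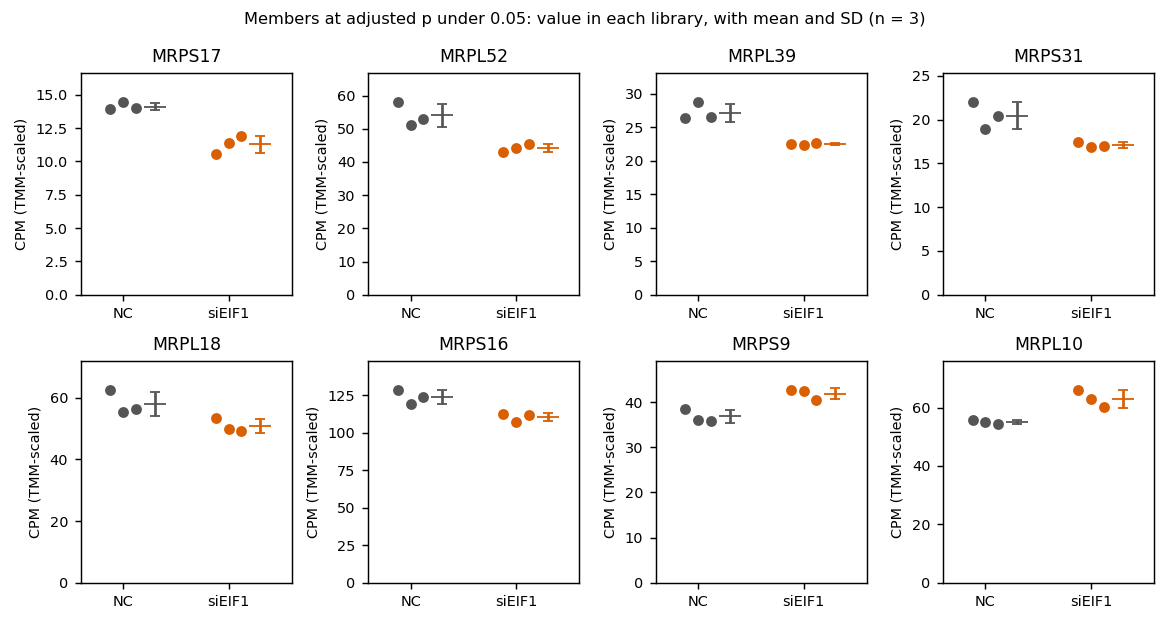
CPM (y axis, from 0) of the 8 mitoribosomal genes at an adjusted p under 0.05, one panel per gene, with a dot for each library, and the mean with its SD (n = 3) beside the dots, in NC (grey) and siEIF1 (orange). The groups do not overlap in any panel, and MRPS9 and MRPL10 are the panels with siEIF1 above NC.

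Some of these calls depended on single libraries. MRPS17, MRPL52 and MRPL39 passed the test in each of 14 other fits, which included leaving out each of the 6 libraries, whereas the remaining 5 kept their direction in all 14 but not their call. Without NC replicate 1, the adjusted p was 0.103 for MRPS31, 0.160 for MRPL18 and 0.105 for MRPS16. Leaving out NC replicate 3 gave 0.0762, 0.0710 and 0.102 for the same 3 genes, and 0.134 for MRPS9 and 0.0762 for MRPL10. Without siEIF1 replicate 2, the values were 0.0832 for MRPS31, 0.132 for MRPL18, 0.126 for MRPS16, 0.106 for MRPS9 and 0.0539 for MRPL10. MRPS9 and MRPL10 also lost their calls when NC replicate 2 was dropped (0.124 and 0.0620) or when siEIF1 replicate 1 was (0.0833 and 0.0685). MRPL18 missed it without siEIF1 replicate 3 (0.0834). MRPS9 was not called by DESeq2 (adjusted p = 0.0696) or without the count filter (0.0725). Called members numbered 5 with NC replicate 1 left out, and 3 with either NC replicate 3 or siEIF1 replicate 2 left out. These were 6.41%, 3.85% and 3.85% of members. Over all genes the share called also fell in those fits, from 20.6% with all libraries to 13.8%, 14.0% and 13.2% in that order. All these p-values are edgeR's except that of DESeq2.

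Among the genes that were not called, the values were smaller than those above or more variable. MRPL34, the counterpart of a small bacterial large-subunit protein, was at 44.8, 39.0 and 40.5 CPM in NC and at 36.1, 38.8 and 33.8 CPM in siEIF1. The groups just failed to touch, and the log2 fold change of -0.19 ± 0.069 (SE) had an adjusted p of 0.0660 in edgeR. MRPL4, whose bacterial counterpart lines the exit tunnel, had a log2 fold change of 0.13 ± 0.061 (SE, adjusted p = 0.143, edgeR) with overlapping groups. MRPL22, another tunnel protein, had 0.13 ± 0.072 (SE, adjusted p = 0.234, edgeR). In the small subunit the next highest after MRPS9 were MRPS18B at 0.11 ± 0.050 (adjusted p = 0.145) and MRPS28 at 0.097 ± 0.061 (adjusted p = 0.301), both with non-overlapping groups.

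Symbols do not always give the subunit. MRPS18A and MRPS30 have been placed in the large subunit by structures of the mitoribosome, MRPS18B and MRPS18C belong to the small subunit, and MRPS36 has been reassigned to the 2-oxoglutarate dehydrogenase complex of the citric acid cycle. The MRPS18 paralogs descend from 1 bacterial protein and occupy different sites. MRPS18A was at 28.3, 28.8 and 29.3 CPM in NC and at 32.2, 32.5 and 27.7 CPM in siEIF1. Its siEIF1 replicate 3 was the lowest of all 6 libraries while the other siEIF1 libraries were the highest, and the log2 fold change was 0.097 ± 0.069 (SE, adjusted p = 0.371, edgeR). MRPS18B was at 96.8, 94.8 and 90.7 CPM in NC and at 102, 105 and 97.4 CPM in siEIF1, with no overlap. MRPS18C was at 23.9, 21.5 and 23.5 CPM in NC and at 22.4, 22.4 and 19.8 CPM in siEIF1, with overlap (log2 -0.093 ± 0.074, SE, adjusted p = 0.424, edgeR). MRPS30 was at -0.068 ± 0.055 and MRPS36 at 0.022 ± 0.084 on the log2 fold change scale, with adjusted p of 0.433 and 0.890 (edgeR).

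No test between the subunits was made. The median log2 fold change was -0.023 in the large subunit and 0.0018 in the small subunit. The small-subunit median lay on either side of 0 depending on the scaling (0.0020 with upper-quartile and -0.00075 with RLE normalization), and the large-subunit median turned positive, 0.0092, without siEIF1 replicate 3. With MRPS18A and MRPS30 counted as large-subunit and MRPS36 left out, the subunits held 51 and 26 genes, each with 4 calls, and medians of -0.023 in both. The share called was 8.16% of the large and 13.8% of the small subunit by symbol, beside a background of 20.6%. Without the count filter these shares were 12.2% and 10.3%, beside 11.8% of all genes in that fit.

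The libraries of both groups did not overlap for 20 of the 78 genes, or 25.6%, of which 5 were higher and 15 lower in siEIF1. Over all genes tested the share was 37.1%, with 18.2% higher and 18.9% lower. By subunit, 2 large-subunit genes were higher and 7 lower, and 3 small-subunit genes were higher and 8 lower.

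Within the large subunit, 3 structural neighbourhoods were listed by hand, with earlier results of these data known. The stalk and its base, where elongation factors bind, had 1 of 5 genes called (MRPL10), and its most abundant transcript, MRPL12, stood at a log2 fold change of -0.0090 ± 0.052 (SE, adjusted p = 0.931, edgeR). The tunnel exit, through which nascent membrane proteins leave, had 1 of 8 genes called (MRPL39). The central protuberance, which touches the small subunit, had 1 of 5 called (MRPL18). These shares of 20%, 12.5% and 20% are near or under the 20.6% of all genes.

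The summed level of the members showed how little the whole set moved. It was 4156, 3986 and 4018 CPM in NC and 4057, 4100 and 3823 CPM in siEIF1. Replicate 3 of siEIF1 was the lowest of the 6 libraries, and the other siEIF1 libraries fell inside the NC range. The means were 4053 ± 90.4 and 3993 ± 149 CPM (SD, n = 3), a difference of -1.47%. Without siEIF1 replicate 3 the difference was 0.628%. These values depended on the scaling. Summed FPKM was 1567 ± 39.2 in NC and 1521 ± 41.4 in siEIF1 (SD, n = 3), a difference of -2.95%. As a share of all counts, members held 0.4166%, 0.4013% and 0.4076% in NC. In siEIF1 they held 0.4011%, 0.4020% and 0.3832%, so replicate 1 was then also below every NC library. Large-subunit transcripts together outweighed small-subunit transcripts by a ratio of 1.41, 1.41 and 1.41 in NC and 1.41, 1.42 and 1.40 in siEIF1, so the balance between the subunits differed by less than the spread between libraries.

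**Figure D3:**
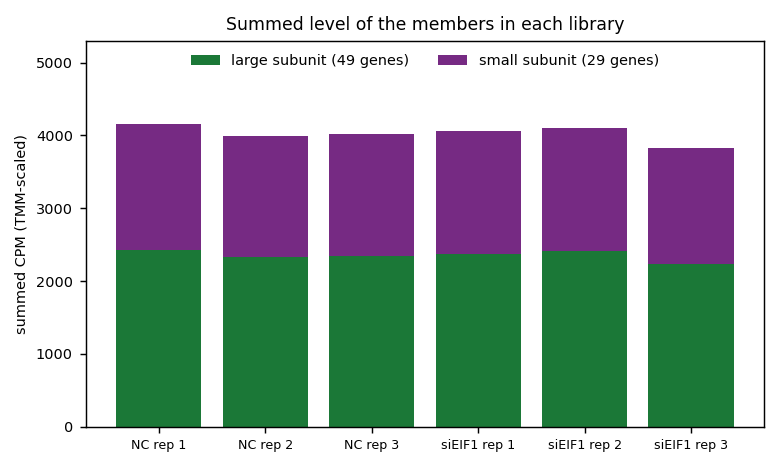
Summed CPM (y axis, from 0) of the 49 large-subunit genes (green) and 29 small-subunit genes (purple) stacked for each of the 6 libraries (x axis). The totals lie between 3823 CPM in siEIF1 replicate 3 and 4156 CPM in NC replicate 1.

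Per length, the members differed widely among themselves although their products enter the same particle. Mean FPKM over the 6 libraries ran from 1.31 for MRPL2 to 74.7 for MRPL51, with a median of 14.5. The median was 14.9 FPKM in the large and 13.1 FPKM in the small subunit. MRPL51, a mitochondria-specific protein, was at 79.0, 73.9 and 75.6 FPKM in NC and at 76.1, 75.9 and 67.5 FPKM in siEIF1. MRPL12, which forms the flexible arms of the stalk and is present in several copies per ribosome, was at 61.6, 63.0 and 65.8 FPKM in NC and at 63.7, 63.0 and 59.8 FPKM in siEIF1. Groups overlapped for both genes, and siEIF1 replicate 3 was the lowest library for both.

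In the small subunit, MRPS34, which is mitochondria-specific, and MRPS21, which has a bacterial counterpart, were highest. MRPS34 was at 61.2, 55.3 and 58.7 FPKM in NC and at 65.5, 63.3 and 55.5 FPKM in siEIF1. MRPS21 was at 59.3, 56.5 and 62.3 FPKM in NC and at 58.9, 60.8 and 56.2 FPKM in siEIF1. Neither was called, with adjusted p of 0.382 and 0.971 in edgeR, although MRPS34 reached 0.0313 without siEIF1 replicate 3.

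At the low end, MRPL2, a core protein of the peptidyl transferase region, was at 1.23, 1.54 and 1.0 FPKM in NC and at 1.39, 1.36 and 1.31 FPKM in siEIF1. Its NC libraries enclosed the siEIF1 libraries. It had 101 counts a library on average and the widest error of the members, a log2 fold change of 0.13 ± 0.17 (SE, adjusted p = 0.657, edgeR), and the estimate was -0.022 without NC replicate 3. MRPL2 overlaps another coding gene on its own strand, and the part of this in its low level was not tested. MRPL42 followed at a mean of 2.40 FPKM, then MRPS18C at 3.72 and MRPS11 at 4.34 among the small-subunit genes. MRPL42 was not low in counts, with a mean of 1390 a library, but its canonical transcript is 15557 bases long. Levels were kept in order between the groups, with a Spearman rho of 0.994 across the 78 genes, which share libraries and are not independent replicates.

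**Figure D4:**
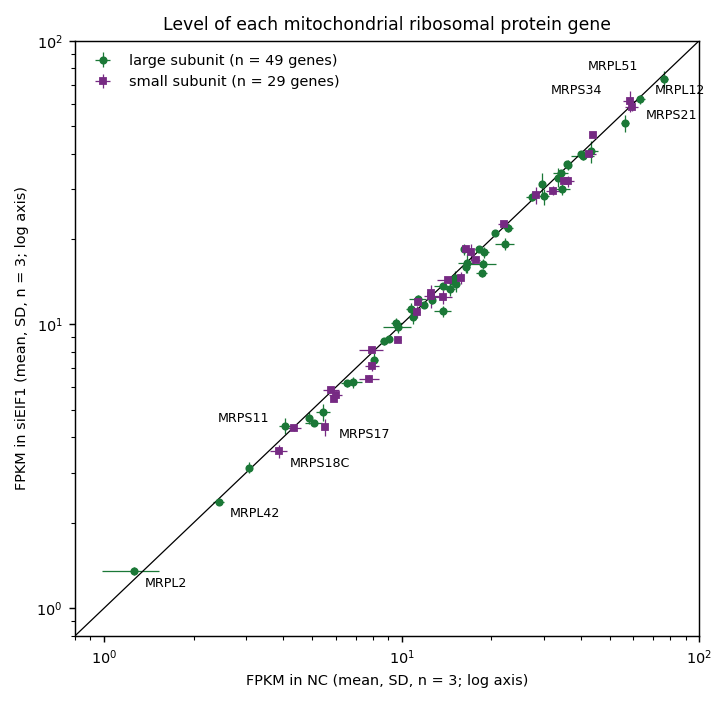
Mean FPKM of each gene in NC (x axis, log scale) against siEIF1 (y axis, log scale), with SD over 3 libraries as bars, for the large subunit (green circles) and small subunit (purple squares), and a diagonal of equal values. The genes lie along the diagonal from MRPL2 at 1.31 FPKM to MRPL51 at 74.7 FPKM (means over all libraries).

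The gene starts shared sequence features that the choice of members did not use. RefSeq promoter sequences (GRCh38.p14), 250 bases before to 50 bases after the annotated start, were found for 69 of the 78 genes and searched on both strands. CCGGAAG, the core bound by ETS factors such as the GABP complex, which is known for driving nuclear genes of mitochondria, was present in 29 of 69 windows (42.0%), against 10.7% of all 27305 promoters. The site of the respiratory factor NRF1 was in 8 (11.6% against 6.28%). The TISU element, which resembles the site of the factor YY1 and serves as a start codon context in genes with short leaders, was in 10 (14.5% against 0.916%). TATAAA was in 2 (2.90% against 12%), CCAAT in 20 (29% against 35.7%), CACGTG in 6 (8.70% against 7.43%) and GGGCGG in 42 (60.9% against 44.6%). TISU was searched as the letters in capitals in the start codon windows given further on, and the NRF1 site as those in the MRPS9 window with any base allowed at position 5. The 27305 promoters were not limited to coding genes or to genes tested here, whereas all members are both. How members compare with other tested coding genes in these motifs was not tested. A match of letters is a description and not a shown binding site.

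The called members with a promoter window were 7, and the windows around the ETS core or the NRF1 site are given for the 4 that held such a match, with the motif in capitals on whichever strand it lay.
MRPL52 (chr14:22829871-22829900, plus strand, ETS core): ggccacgcctaCTTCCGGctaccccggcta
MRPS16 (chr10:73252621-73252650, minus strand, ETS core): cggatcatccgCTTCCGGagtcgaggtttt
MRPS31 (chr13:40771204-40771233, minus strand, ETS core): aaggcgccaggCCGGAAGcggaagagaggg
MRPS9 (chr2:105038019-105038048, plus strand, NRF1 site): cgcgccattaGCGCCTGCGCcgtctctagg
MRPL52, MRPS16 and MRPS31, with the ETS core, fell, as did MRPL39, MRPL18 and MRPS17, which held neither match, and MRPS9, with the NRF1 site, rose. Over all members, the median log2 fold change was -0.036 for the 29 with the ETS core, of which 3 were called, and -0.014 for the 40 without it, of which 4 were called. The share called over all genes was 20.6%. Of GABP itself, the DNA-binding subunit gene GABPA was higher in siEIF1 (log2 0.21 ± 0.061, SE, adjusted p = 0.0263, edgeR) and its partner GABPB1 lower (-0.33 ± 0.081, SE, adjusted p = 0.0119, edgeR). The call of GABPA was lost in 8 of 14 other fits, among them DESeq2 (adjusted p = 0.0633), and that of GABPB1 without siEIF1 replicate 2 (0.0541).

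Because EIF1 acts at start codons, the sequence around the start codon of each member was read from the canonical GENCODE release 44 transcripts. The 5′ leader was short, with a median of 30.5 bases over the 78 genes against 141 over 12969 tested coding genes, and 48.7% of members against 9.64% had a leader under 30 bases. It was 40 bases at the median in the large and 22 in the small subunit. A purine at position -3, counted from the A of the AUG, was present in 73 of 78 members (93.6% against 86.9%). That purine together with a G at position 4 was present in 65.4% against 46.6%.

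In 9 members the start codon itself lay inside the TISU element (11.5% against 1.21% of tested coding genes). Their windows are printed to show this shared start, with the element in capitals and the start codon ATG within it.
MRPL22 (chr5:154941093-154941122, plus strand): gtagcgggagggcgaAAGATGGCGGCggca
MRPL38 (chr17:75904858-75904887, minus strand): gccggagggAAGATGGCGGCgccctggtgg
MRPL46 (chr15:88467360-88467389, minus strand): ggagaacgaAAGATGGCGGCgcccgtaagg
MRPL50 (chr9:101398575-101398604, minus strand): atctcatcgAAGATGGCGGCgcgatctgtg
MRPS10 (chr6:42217832-42217861, minus strand): gggaccggcAAGATGGCGGCgcggacagcg
MRPS18A (chr6:43687762-43687791, minus strand): aggtttttgAAGATGGCGGCcctcaaggct
MRPS18B (chr6:30617854-30617883, plus strand): gcgtacgtcAAGATGGCGGCgtctgtatta
MRPS24 (chr7:43869478-43869507, minus strand): gcttggcccAAGATGGCGGCctccgtgtgc
MRPS30 (chr5:44808951-44808980, plus strand): tcgcgggcaAAGATGGCGGCggccaggtgt
These 9 genes had log2 fold changes from -0.13 to 0.13, with a median of 0.040. None was called in edgeR, DESeq2 or limma, and at an unadjusted p under 0.05 there was 1 in edgeR, 0 in DESeq2 and 2 in limma. The other 69 members had a median of -0.029 and held all 8 calls. Over all members 10.3% were called, and over all genes 20.6%. With only 9 genes, a count of 0 is no result about the element. Transcript levels alone were measured, and use of the start codons was not.

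Genes that assemble, feed or regulate the mitoribosome were counted in the same way, in lists written by hand. The lists were written with earlier results of these data known, and the differences between lists were not tested. The share called was 24.0% of assembly factors, 12.5% of translation factors, 23.5% of genes of mitochondrial transcription and mtDNA maintenance, 7.69% of mtDNA-encoded proteins, 30.8% of regulators and 3.49% of cytosolic ribosomal proteins, beside 20.6% of all genes. With so few genes a list, a share near the background is no result about the list. Mitoribosome proteins outside the MRPL and MRPS names (DAP3, PTCD3, AURKAIP1, CHCHD1 and GADD45GIP1) gave 0 calls of 5 in edgeR, DESeq2 and limma, with 0, 0 and 1 at an unadjusted p under 0.05. Their median log2 fold change was -0.027.

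Of 25 assembly factors tested, 3 were higher and 3 lower. NOA1, a GTPase needed for mitochondrial translation, was at 44.3, 46.8 and 43.8 CPM in NC and rose in siEIF1 (log2 0.33 ± 0.054, SE, adjusted p = 0.000763, edgeR). RPUSD4, a pseudouridine synthase acting on mitochondrial ribosomal RNA, rose by 0.24 and TRUB2, of the same enzyme class, by 0.15. MTERF3, which is needed for large-subunit assembly, fell by 0.48 on the log2 scale (SE 0.085, adjusted p = 0.00147, edgeR), the largest decrease in this list. C1QBP, a matrix protein, fell by 0.21 and FASTKD2, an RNA-binding protein of large-subunit assembly, by 0.20. NOA1 and MTERF3 kept their calls in all 14 other fits. Without NC replicate 3 only 3 assembly factors were called, and TRUB2 kept its call in 3 of the 14.

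Of 16 translation factors tested, 2 were lower, namely GFM2, which recycles mitoribosomes (log2 -0.21 ± 0.057, SE, adjusted p = 0.0194, edgeR), and GUF1, the mitochondrial counterpart of bacterial LepA (-0.20 ± 0.056, SE, adjusted p = 0.0217, edgeR). Without NC replicate 1 or siEIF1 replicate 2 neither was called, and 1 was called without NC replicate 3. Of 17 genes of mitochondrial transcription and mtDNA maintenance, 3 fell and 1 rose, with a list median of -0.13. PNPT1, an RNA-degrading enzyme, fell by 0.40, TWNK, the mtDNA helicase, fell by 0.27, and TFAM, which packages and transcribes mtDNA, fell by 0.16, while TOP1MT, the mitochondrial topoisomerase, rose by 0.28. The call of TFAM was lost in each of the 6 fits with a library left out, with an adjusted p of 0.0523 to 0.110.

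The products of the mitoribosome are encoded by mtDNA, and 12 of these 13 transcripts had a positive log2 fold change, with a median of 0.10. Only MT-ATP8, a subunit of ATP synthase, passed the test (log2 0.18 ± 0.053, SE, adjusted p = 0.0311, edgeR). Libraries did not overlap for 8 of the 13, all higher in siEIF1, where 18.2% of all genes were higher without overlap. The 13 genes share the mtDNA and the same libraries, so they are not independent observations. The count of calls was 0 without any of NC replicates 1 to 3 or siEIF1 replicates 1 or 2, 6 without siEIF1 replicate 3, 4 in DESeq2 and 0 in limma, while the median stayed between 0.080 and 0.125 with each library left out. Reads of these genes are hard to separate from nuclear copies of mtDNA, and polyA selection takes them up unevenly.

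Among 13 regulators of nuclear genes for mitochondria, 2 rose and 2 fell. Besides GABPA and GABPB1, ATF4, the transcription factor of the integrated stress response, rose (log2 0.24 ± 0.051, SE, adjusted p = 0.00513, edgeR), and DDIT3, a transcription factor of the unfolded protein response, fell (-0.84 ± 0.058, SE, adjusted p = 8.97e-07, edgeR). NRF1, whose site is in the promoter windows above, was at -0.041 ± 0.083 (SE, adjusted p = 0.778, edgeR) and YY1 at 0.085 ± 0.047 (SE, adjusted p = 0.233, edgeR).

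The cytosolic ribosomal proteins, the counterparts of the members on the other ribosome, gave 3 calls of 86 and a median of -0.026. RPL22L1 (log2 -0.25) and RPL39L (-0.34), both paralogs of core proteins, were lower, and RPL36AL (0.16) was higher, with adjusted p of 0.0116, 0.0223 and 0.0378 in edgeR. The count fell to 1 with NC replicate 1 or 3 left out. With siEIF1 replicate 3 left out it was 7, and the median was then 0.032.

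**Figure D5:**
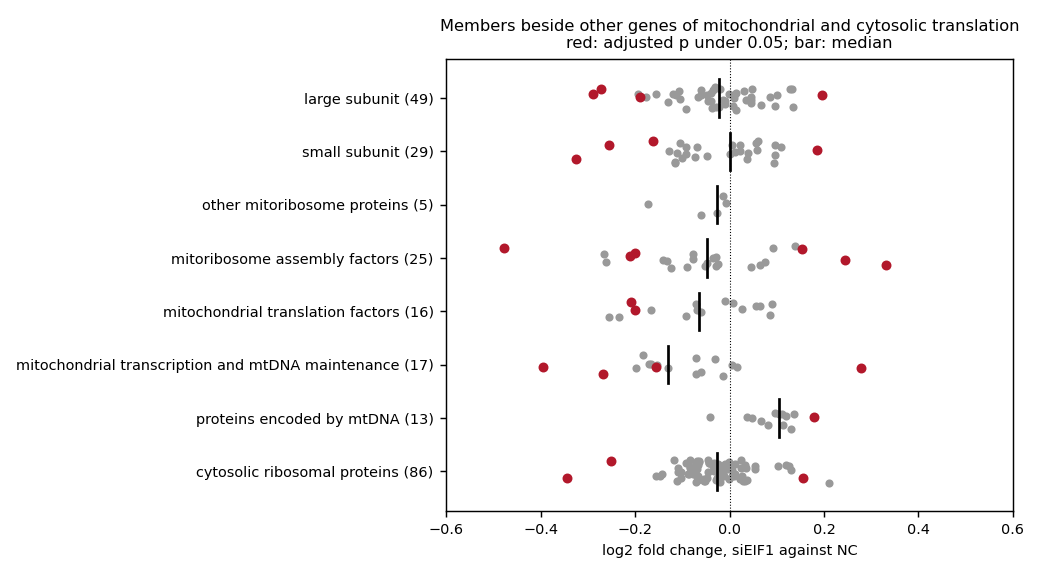
Log2 fold change (siEIF1 against NC, x axis) of each gene in 8 lists, with the number of genes tested in brackets, red for an adjusted p under 0.05, grey otherwise, and a black bar at the list median. The 2 mitoribosomal subunits and the cytosolic ribosomal proteins lie close to 0, and the mtDNA-encoded proteins have the most positive median, 0.10.

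Reads of some members could be shared with other genes, since the counting program and its strand setting are not given in the sources used here. The count table listed 15 pseudogenes of members, of which 3 reached 10 counts in any library. MRPS31P5, a copy of MRPS31, held 198 to 243 counts a library and a log2 fold change of -0.10 ± 0.11 (SE, adjusted p = 0.548, edgeR). MRPS17 overlaps NIPSNAP2 on the same strand, and the latter was at 0.11 ± 0.051 (SE, adjusted p = 0.155, edgeR), opposite in sign to MRPS17. MRPS9 has an antisense gene, MRPS9-AS1, with 46 to 88 counts a library and a log2 fold change of 0.28 ± 0.21 (SE, adjusted p = 0.379, edgeR). The part of these neighbours in the values of the members was not tested.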

How the data were processed

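RNA-seq of 6 ARPE-19 libraries was analysed, assigned to NC and siEIF1 (n = 3 each) by sample title. The authors trimmed reads with FASTX-Toolkit 0.0.13, aligned them to GRCh38 with HISAT2 and counted uniquely mapped reads. The authors deposited counts per gene without normalization, for 30618 genes. The authors also deposited FPKM values for 30275 genes, and these hold all 78 members. Of the columns with values, 0 were left unmatched to a library.

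Counts were filtered with filterByExpr, leaving 16749 genes, scaled by TMM and tested with edgeR 4.0.16 (quasi-likelihood, Benjamini-Hochberg adjustment over all genes tested, no covariates) in R 4.3.3. Standard errors were derived from the F statistic. Summed counts per library were 26499929 to 31431479, and members had a median of 1350 counts a library. The part of counting error in the spread between libraries was not tested. Chi-square statistics per degree of freedom between libraries of a group were 3.03 to 14.3, so no 2 libraries agreed within sampling noise. The labels do not say that libraries of a group came from separate cultures, and p-values measure the spread between these libraries.

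Alternatives were RLE and upper-quartile scaling, no count filter, at least 10 counts in every library, DESeq2 1.42.0 (the tool of the study), limma 3.58.1 on log2(FPKM + 1) and log2(FPKM + 0.1), a block for replicate number, stricter limits, subunits by structure, and each library left out. Coordinates came from GENCODE release 44 on GRCh38 and promoters from RefSeq. Motif windows, neighbours and start codons were described without a test. Named are EIF1, members at an adjusted p under 0.05, in each subunit the 3 highest and 3 lowest log2 fold changes and the 2 highest and 2 lowest FPKM, MRPS18A to MRPS18C, MRPS30 and MRPS36, and up to 6 called genes of each other list. Other genes, among them those in the sequence windows, those beside a member and regulators not called, were named after values were seen. The rule for members used symbols alone, but the group and the lists were chosen with earlier results of these data known.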

Additional observations from a re-analysis of the deposited data

How the results depend on the processing

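With 3 libraries a group, the calls of 5 of the 8 called members were lost when single libraries were left out. Recomputed counts, medians and sums were taken to stay when within 1.5 times the value given or within the spread between siEIF1 libraries. For medians near 0 this limit was wide, and a change of sign could count as staying. The spread was 0.059 for the member median of -0.021 and 0.114 for the cytosolic ribosomal median of -0.026. The log2 fold change of EIF1 is included and was judged by its sign and call. Of these values, 169 stayed and 11 moved further when all libraries were kept, and 104 stayed and 28 moved when 1 library was left out. The median log2 fold change of all genes moved by less than 0.1 under every scaling. At an adjusted p under 0.01, 2 members were called, both of the large subunit, and 0 of the small subunit, and the limit of a 2-fold change left 0, 0 and 0.

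The replicate numbers are shared by the groups in the labels, but nothing says that they mark a common culture or day. The correlation of deviations from the group means was 0.149, 0.0946 and 0.128 for same-numbered libraries, so not all were over 0.1 and the numbers were not taken as pairs, although all 6 libraries correlated best with their own number. With the replicate number as a block, the called members were 10 in place of 8 (4277 of all genes in place of 3446), with MRPL17 and MRPL34 added, cytosolic ribosomal proteins gave 5 calls and mtDNA-encoded proteins 2. For the mtDNA-encoded proteins, DESeq2 gave 4 calls and limma 0 with either pseudocount. Without the count filter 9 members were called (1 higher, 8 lower) and DESeq2 called 7.

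With each library left out, the called members ranged from 3 to 8, those of the large subunit from 2 to 4 and those of the small subunit from 1 to 5. The share of all genes called ranged from 13.2% to 20.5% in the same fits, against 20.6% with all libraries. For the other lists the calls ranged from 1 to 7 (cytosolic ribosomal proteins), 0 to 2 (translation factors), 3 to 6 (assembly factors), 0 to 6 (mtDNA-encoded proteins) and 2 to 6 (regulators). The list medians ranged from -0.15 to -0.078 (mitochondrial transcription and mtDNA maintenance), -0.10 to -0.016 (translation factors) and -0.086 to -0.037 (regulators). The cause of these shifts was not tested.

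Without siEIF1 replicate 3, the median log2 fold change turned positive for all members (0.0087), the large subunit (0.0092) and the cytosolic ribosomal proteins (0.032). The summed CPM of members was then 0.628% higher in siEIF1. The median of the other mitoribosome proteins ranged from -0.058 to 0.0036 with each library left out, and that of the small subunit from -0.040 to 0.00068. Among named genes, 6 members changed sign, none of which was called. With each library left out, MRPL12 ranged from -0.035 to 0.033, MRPL51 from -0.080 to 0.033, MRPL2 from -0.022 to 0.30, MRPS11 from -0.020 to 0.046, MRPS21 from -0.040 to 0.048 and MRPS36 from -0.034 to 0.11. In limma with pseudocounts of 1 and 0.1, MRPS11 was -0.0073 and -0.0086, MRPS36 was -0.0022 and -0.0026, and MRPS21 was -0.017 with either. MRPS21 was also -0.0022 without the count filter and -0.00015 in DESeq2. The cause was not tested.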

Other observations

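Some members start head to head with another coding gene, with both starts on opposite strands and close together. How often this holds over all coding genes was not computed. This arrangement, with starts within 1000 bases, was found for 17 of the 78 members, and 14 partners outside the group were tested. Of these 14 partners 3 were called, as were 3 of the members beside them, while 20.6% of all genes were called. With so few partners, a share near the background is no result about them. SKA3, a kinetochore gene whose start lies 106 bases from that of MRPL57, was at 6.10, 5.94 and 5.24 CPM in NC and at 1.54, 1.51 and 1.77 CPM in siEIF1. It fell by 1.83 on the log2 scale (SE 0.150, adjusted p = 2.71e-06, edgeR), while MRPL57 was at 0.0061 (adjusted p = 0.964). EME1, a DNA repair gene 13 bases from MRPL27, fell by 1.04 (SE 0.171, adjusted p = 0.000828, edgeR), while MRPL27 was at 0.099 (adjusted p = 0.286). TCP1, a chaperonin gene 109 bases from MRPL18, fell by 0.21 (SE 0.060, adjusted p = 0.0228, edgeR), beside a decrease of 0.19 for MRPL18, and was the only partner called together with its member. These partners were named after their values were seen, and the differences within pairs were not tested.

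The order of members by level depended on the length used. FPKM and counts per kilobase of the canonical transcript ranked the 78 genes with a Spearman rho of 0.755. MRPS24 was at rank 21 by FPKM and 2 by counts per kilobase, MRPL23 at 54 and 15, and MRPS6 at 44 and 9. With the summed gene counts taken as the mapped total, the length implied by the deposited FPKM was 1.22 to 7.95 times that of the canonical transcript. The authors' total of mapped reads is not known here, and a different total would scale all these ratios alike. MRPL41, MRPS26, MRPS10 and MRPL12 all stood at 1.22. The part of the total in these ratios was not tested. Log2 fold changes compare the same gene between groups and do not use this length.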
